A study of Mus musculus with 9 samples.

Results

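The ion channel genes of the mouse medial prefrontal cortex (mPFC) were followed through chronic restraint stress (CRS) and the loss of Fkbp5, whose product binds Hsp90 and lowers the affinity of the glucocorticoid receptor for its hormone. Members were taken by gene symbol alone: all Kcn genes with a single family letter and a number, apart from Kcnj10, together with the Scn sodium channel genes, the Cacna1 calcium channel genes and the Hcn genes. This gave 107 of the 24532 genes listed for each mouse, and 85 of them averaged at least 30 reads over the 9 mice, the minimum used for testing. The symbols also take in families that are not gated by voltage, namely the inward rectifiers (Kcnj), the two-pore channels (Kcnk), the calcium-activated channels (Kcnn) and the sodium-activated channels (Kcnt), as well as the Kcne and Scn beta subunits, which form no pore. They leave out Kcnma1, the pore of the large-conductance BK channel, which was read with the partner genes instead.

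Voltage-gated sodium channels open the action potential, potassium channels of the Kv families end it and set the interval to the next one, calcium channels of the Cacna1 family couple it to transmitter release and gene transcription, and HCN channels carry an inward current at negative potentials. Inward rectifiers and two-pore channels hold the resting potential, in neurons and in glia. Most of these channels are assembled from pore-forming and auxiliary subunits, so that a cell's excitability depends on the mixture. Pyramidal cells and inhibitory interneurons of the prefrontal cortex use different mixtures, with Kv3 channels and the sodium channel encoded by Scn1a prominent in fast-spiking interneurons.

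RNA was sequenced from 3 groups of 3 mice, 1 library per mouse. All were male mice, of the strain C57BL/6 per the labels and C57BL/6J per the study's methods, and 11 weeks old per the labels. CT mice were wild type and stayed in their home cages, WT_ST mice were wild type and were restrained daily, and KO_ST mice were homozygous Fkbp5 knock-outs (Fkbp5-/-) and were restrained in the same way. CT mice also went without food and water during the hours of restraint. No unstressed Fkbp5-/- group was included, so in KO_ST against CT the parts of genotype and stress cannot be told apart. Depth ranged from 43778471 to 61150128 reads assigned to genes per mouse, and Pearson's r between libraries across tested genes was 0.9875 to 0.9936. The direction of the targeted gene followed the labels, with transcript left in KO_ST: Fkbp5 stood at 6.46 to 7.61 FPKM (read pairs scaled to transcript length and library size) in CT, 9.47 to 10.3 in WT_ST and 3.59 to 4.69 in KO_ST (625 to 907 reads), and the fall between the stressed groups was 1.04 on the log2 scale (limma, Benjamini-Hochberg adjusted p = 0.00908). The tissue carried the markers of cortical neurons, with Slc17a7 between 581 and 677 FPKM and Camk2a between 699 and 806 FPKM, while the choroid plexus marker Ttr was at most 0.366 FPKM.

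Which channels does this tissue express, and which are absent from it? Among the highest levels were that of Scn2b, the sodium channel beta2 subunit, which forms no pore (72.5 FPKM on average), and that of an inward rectifier. Scn2b and this inward rectifier gene, Kcnj4 (66.9 FPKM), overlapped between mice. Kcnh3, a channel of the ether-a-go-go family concentrated in the forebrain, followed with 62.2 FPKM, and Kcnj9 (56.1 FPKM), a subunit of G protein-gated channels, was close to it. Among the pore-forming sodium channel genes Scn2a was highest at 46.1 FPKM on average, before Scn8a and Scn1a. Cacna1a, the pore of P/Q-type channels at presynaptic terminals, led the calcium channels with 27.0 FPKM, and Hcn2 led the HCN genes with 37.6 FPKM.

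**Figure D1:**
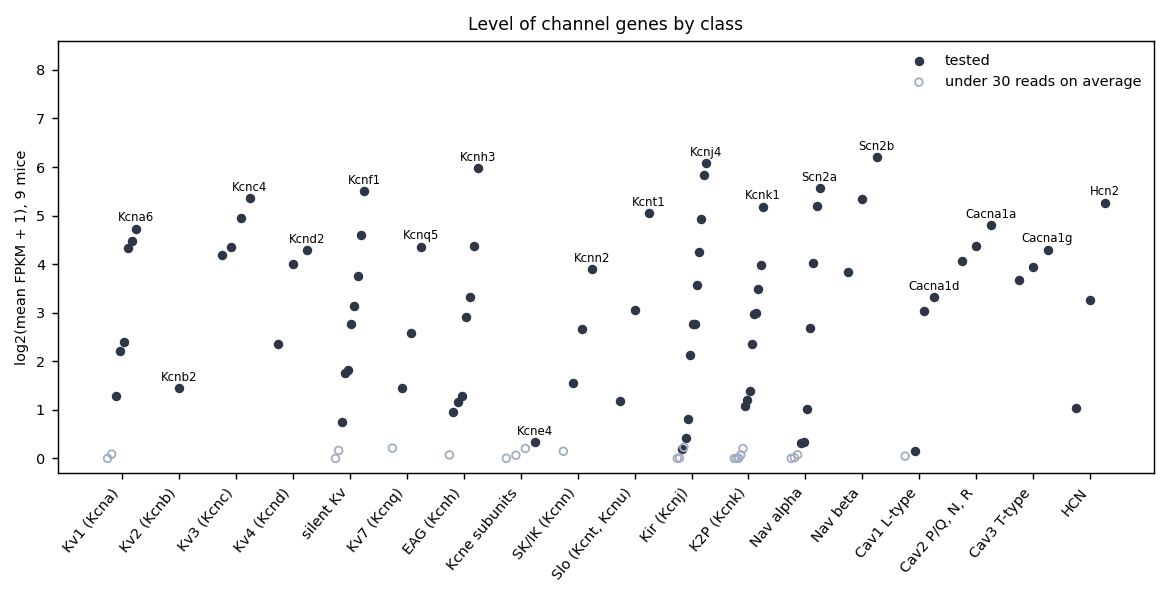
Level of 103 of the channel genes as log2(mean FPKM + 1) over the 9 mice (vertical axis), grouped by channel class (horizontal axis), with the highest plotted gene of each class named. Filled points are the 81 tested genes plotted and open points the 22 genes that averaged under 30 reads, which lie near 0 while Scn2b and Kcnj4 stand at the top.

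The other end of the range held 22 genes under the minimum for testing. Of these, 7 had at most 3 reads in each mouse: the skeletal muscle sodium channel Scn4a, the Kv1 gene Kcna7, the silent subunit Kcnv2, the cardiac auxiliary subunit Kcne1 and the two-pore genes Kcnk15, Kcnk16 and Kcnk18. Kcnv2, Kcnk16 and Kcnk18 had 0 reads in all 9 mice. With 3 reads as the limit that a count of 0 allows, expression below that level was not detectable at this depth. Scn10a and Scn11a, known from sensory neurons of the dorsal root ganglia, averaged 18 and 3.56 reads, and Cacna1f, known from photoreceptor synapses, averaged 11 reads. The remaining 12 were Kcna10, Kcng3, Kcnq1, Kcnh8, Kcne2, Kcne3, Kcnn4, Kcnj1, Kcnj13, Kcnj15, Kcnk5 and Kcnk7. Just inside the minimum were Kcne4 (33.4 reads on average), Kcnj5 (33.9 reads) and Cacna1s (34.6 reads), and just outside it were Kcnj13 (27.8 reads), Kcnk5 (26.8 reads) and Kcnq1 (25.3 reads). No class was missing from the tissue as a whole, since each of the 18 had at least 1 tested gene, but of the 4 Kcne genes only Kcne4 was tested, at 0.265 FPKM.

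Does CRS change channel expression in wild-type mice? In WT_ST against CT none of the 85 tested genes was called, that is, differed by a fold change above 1.2 at p under 0.05 before adjustment, where 2.47% of all 14370 tested genes were called (1.16% higher and 1.32% lower). By p alone, 8 channel genes were under 0.05 (7.86% of all tested genes were), and none passed an adjusted p of 0.05. The genes under 0.05 by p alone in limma included Kcnk4, a two-pore channel opened by stretch and heat (+0.22 in log2 fold change), Kcnh2 (+0.21), Kcna6 (+0.17), Kcnj3 (+0.13), Kcnh1 (+0.12), the beta subunit gene Scn2b (+0.09), and Kcnh3 (-0.13). The count tools called 2 genes each, which were not among these: Kcnj5 and Scn9a with edgeR, and Scn7a and Scn9a with DESeq2, where they called 3.72% and 3.84% of all tested genes. Over the tested channel genes the median log2 fold change was 0.04, with 0.00 over all tested genes, and 53 of 85 lay above CT, where 48.7% of all tested genes lay below it. In 12 genes every WT_ST mouse stood above every CT mouse (7.54% of all tested genes) and in 2 every WT_ST mouse stood below (6.46%), together 14 channel genes where 14% of all tested genes did not overlap. The count of calls depended on single mice: without CT replicate 1 it was 5 (Kcnk4, Kcnv1, Scn1a and Scn4b among them), without WT_ST replicate 3 it was 2 (Kcnh2 among them) and without CT replicate 2 it was 1 (Kcnn2). Over all 14370 tested genes these 3 settings gave 531, 389 and 277 calls, where all mice gave 355.

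In KO_ST against CT, 6 of the 85 tested genes (7.06%) were called, against 3.56% of all tested genes. Higher in KO_ST were 4, among them Scn1a, Kcnj3 and Kcng4 (1.54% of all tested genes were called higher), and lower were 2, Kcnj16 and Kcnn2 (2.03%). By p alone 11 were under 0.05, as were 9.46% of all tested genes, and none passed an adjusted p of 0.05. The median log2 fold change was 0.06 over the channel genes and 0.00 over all tested genes, and 58 of 85 lay above CT, where 49% of all tested genes lay below it. Without CT replicate 3 the median was 0.010 and 40 of the 85 lay below CT, where 27 did with all mice. The count of calls was 2 without CT replicate 2 and 8 without CT replicate 1, where 410 and 734 of all 14370 tested genes were called. On counts edgeR and DESeq2 called 7 each (4.63% and 5.14% of all tested genes). Without overlap between the groups, 15 genes were higher (7.94% of all tested genes) and 2 were lower (7.88%), where 15.8% of all did not overlap. In KO_ST against WT_ST, 3 genes were called, all lower in KO_ST: Kcnn2, Kcnj2 and Kcnj16. On counts edgeR and DESeq2 each called 4, Kcnj2 and Kcnj16 lower and Kcnh5 and Scn7a higher in KO_ST, where they called 2.96% and 2.85% of all tested genes. Over all tested genes 2% were called in that comparison, 1.05% lower and 0.946% higher. By p alone 8 channel genes were under 0.05, as were 5.82% of all tested genes, and 48 of 85 lay above WT_ST, where 50.7% of all lay below it. Without overlap, 8 channel genes were higher (4.99% of all tested genes) and 4 were lower (5.97%), with 11% of all in either direction. The 3 comparisons share their groups pairwise, so a gene's values in them are not independent.

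**Figure D2:**
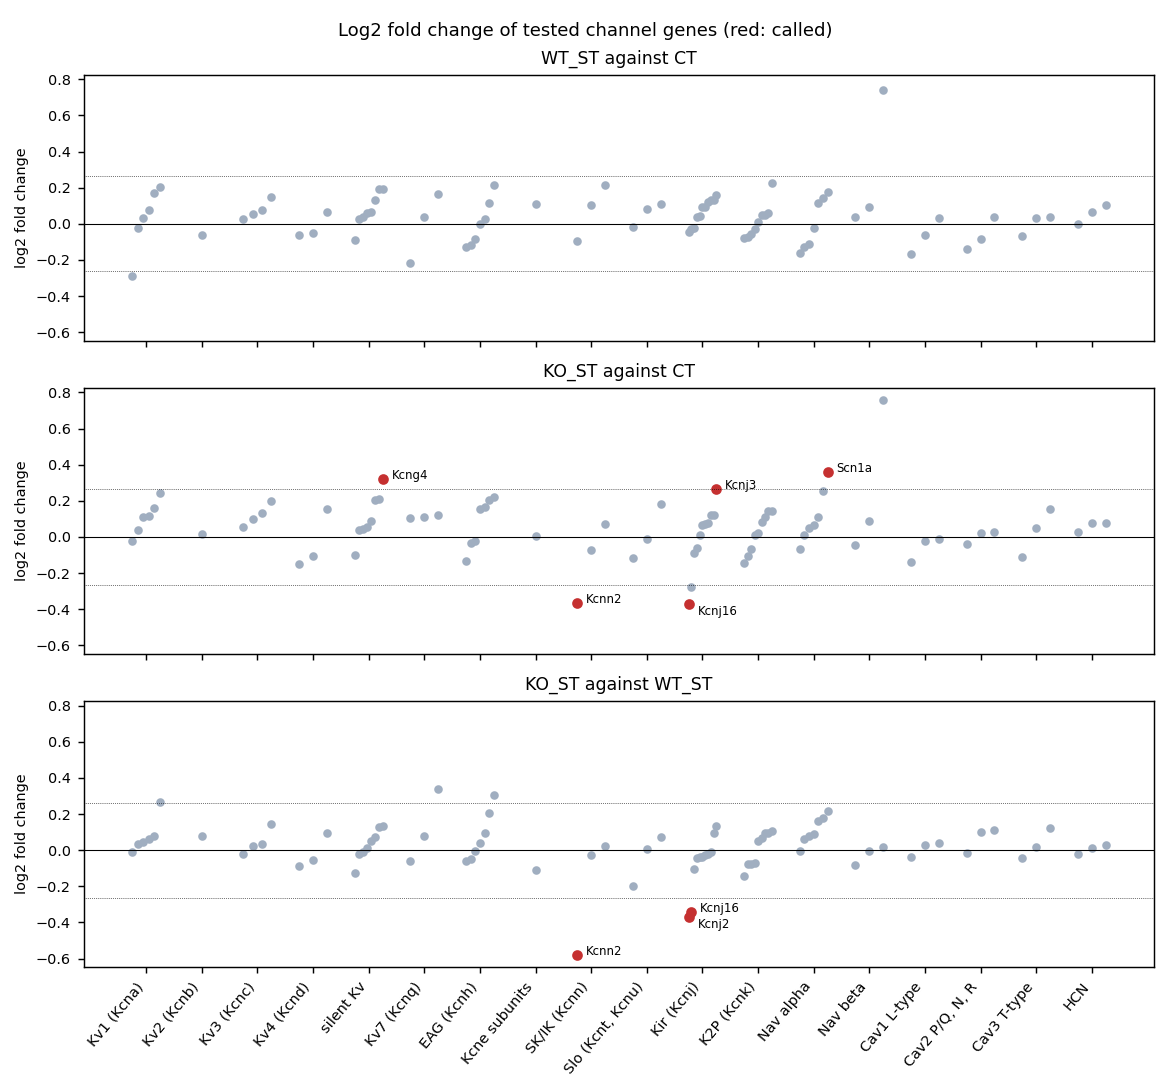
Log2 fold change of 81 of the tested channel genes by class (horizontal axis) in each comparison, 3 mice a group, with called genes in red and dotted lines at a fold change of 1.2. No point is red in WT_ST against CT, 5 are in KO_ST against CT and 3 in KO_ST against WT_ST; the grey points at the top of the Nav beta column are Scn4b.

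Among the 7 tested pore-forming sodium channel genes, Scn1a was the 1 that limma called with all mice, higher in KO_ST than in CT. Scn1a, whose product is the main sodium channel of fast-spiking interneurons, stood at 16.0, 12.6 and 12 FPKM in the CT mice, at 13.6, 15.5 and 15.6 FPKM in WT_ST and at 17.2, 17.2 and 17.4 FPKM in KO_ST. All KO_ST mice lay above all other mice, and the WT_ST mice overlapped CT. The log2 fold change was 0.36 ± 0.10 (SE) over CT in KO_ST (limma, Benjamini-Hochberg adjusted p = 0.49) and 0.21 ± 0.06 in KO_ST against WT_ST, where the fold was under 1.2 (adjusted p = 0.70). The call in KO_ST against CT held in 14 of 15 alternatives, all but the one that kept 2 mice a group. Scn8a, the sodium channel of axon initial segments and nodes, was 0.26 higher in KO_ST than in CT, just under a fold of 1.2, with overlapping mice. It was called there in 6 of 15 alternatives: with a pseudocount of 0.1 (0.26), edgeR (0.30), DESeq2 (0.29), 2 mice a group (0.33), without CT replicate 1 (0.30) and without KO_ST replicate 3 (0.34). Without KO_ST replicate 2 it was 0.17. The low-expressed Scn7a and Scn9a were called on counts: Scn9a in WT_ST against CT (-0.67 with edgeR and DESeq2), and Scn7a in KO_ST against WT_ST (0.38 with both) and, with DESeq2, in WT_ST against CT (-0.39). Scn2a (+0.05) and Scn3a (+0.07), known from excitatory neurons and from development, stayed near 0 in KO_ST against CT. Of the 10 sodium channel pore genes, Scn1a, Scn2a, Scn3a, Scn7a and Scn9a lie within 1328 kb of each other on chromosome 2, and the log2 fold changes of these 5 in KO_ST against CT ran from -0.07 (Scn9a) to 0.36 (Scn1a). Scn9a averaged 0.273 FPKM, a level at which this scale understates differences.

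The RefSeq promoter of Scn1a is given because Scn1a was the called pore gene of the sodium channels. It is the window around the annotated start at chr2:66440788-66441087, minus strand, GRCm38.p6, with no match in capitals because none of the searched motifs occurred in it.
Scn1a: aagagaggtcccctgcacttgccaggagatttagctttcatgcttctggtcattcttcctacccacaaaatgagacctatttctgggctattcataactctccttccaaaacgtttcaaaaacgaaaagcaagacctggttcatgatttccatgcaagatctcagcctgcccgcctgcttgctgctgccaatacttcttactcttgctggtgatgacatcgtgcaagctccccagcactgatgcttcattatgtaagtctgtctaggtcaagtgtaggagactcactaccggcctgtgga
The letters searched, on both strands, were AGAACA (a single arm of the palindromic glucocorticoid receptor site), TTCAGCACC (the left arm of the REST site), CACGTG (E-box) and TGACGTCA (cAMP response element). The receptor arm occurred in 18 of the 95 channel promoters found for 74 genes (18.9%) and in 19% of all 32851 promoters of that length. The E-box occurred in 5.26% of channel promoters and 7.15% of all, the REST arm in 1.05% and 0.371%, and the cAMP response element in none of the channel promoters (1.79% of all). A match is a run of letters and not a shown binding site. The annotation places the non-coding gene Gm13630 on the other strand over Scn1a, and since the sources do not state whether counting used strand, reads of both may be mixed.

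Scn4b, the beta4 subunit that supports resurgent sodium current, had the largest log2 fold changes of all channel genes against CT without being called: 0.74 in WT_ST and 0.76 in KO_ST. Its values were 13.4, 3.86 and 11.8 FPKM in CT, 13.7, 17.3 and 14.3 FPKM in WT_ST and 13.5, 14.4 and 17.6 FPKM in KO_ST. CT replicate 2 stood far under every other mouse, also in reads (892, where the others had 2515 to 3925). Without that mouse the 2 log2 fold changes were 0.25 and 0.27. Without CT replicate 1 they were 1.03 and 1.05 and both were called. CT replicate 2 was also the lowest of the 9 mice for Kcna1 (14 FPKM, others 18.5 to 22.2) and for Kcnv1 (17.1 FPKM, others 21.4 to 27.2), and it had the lowest sum over the 6 inhibitory neuron markers (391 FPKM). Scn4b is known for its high level in the striatum, which borders the dissected region. Of 6 striatal neuron markers, Drd2, Adora2a and Rgs9 were called higher in WT_ST against CT, Drd2 was called higher in KO_ST against CT, and Rgs9 was called lower in KO_ST against WT_ST. Without WT_ST replicate 3 Adora2a in WT_ST against CT fell from 0.45 to 0.26 and was not called. The sum of the 6 markers was 46.1 to 55.0 FPKM in CT, 55.6 to 68.9 FPKM in WT_ST and 46.6 to 56.7 FPKM in KO_ST, with CT replicate 2 lowest, and their part in the level of Scn4b was not tested.

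**Figure D3:**
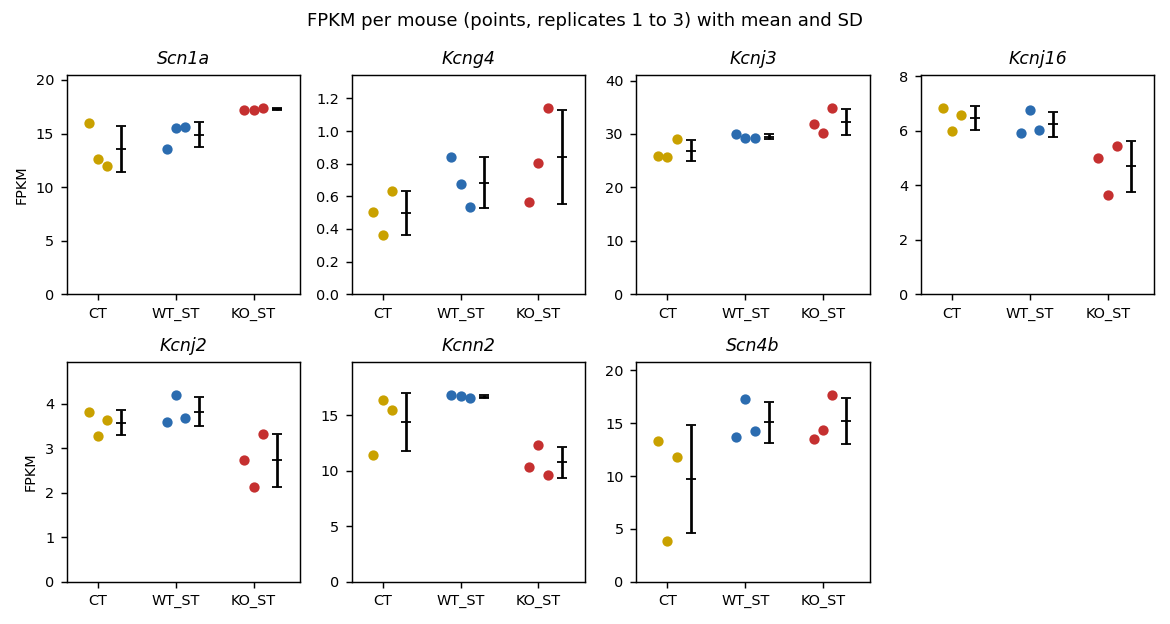
FPKM of 6 called channel genes and of Scn4b in each mouse (points, in the order of replicates 1 to 3), with the group mean and SD (n = 3) at the right of each group and every axis starting at 0. The KO_ST mice of Scn1a sit at 17.2 to 17.4 above all others, those of Kcnj16 sit at 3.65 to 5.46 below all others, and CT replicate 2 of Scn4b lies alone at 3.86.

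Markers of other cell types were read beside these genes. In bulk tissue, fewer cells of a type and less RNA per cell cannot be told apart. Of the 6 inhibitory neuron markers, Pvalb, which marks fast-spiking interneurons, was called higher in KO_ST against CT (+0.34), and none was called in the other comparisons. The summed level of the 6 ran from 391 to 484 FPKM in CT, 429 to 463 FPKM in WT_ST and 460 to 478 FPKM in KO_ST, with most of it from Sst (267 FPKM on average, +0.04 in KO_ST against CT). Slc32a1 (+0.25), Gad2 (+0.19) and Gad1 (+0.17) were under a fold of 1.2 in that comparison, and in FPKM all KO_ST mice lay above all CT mice for each. In WT_ST against CT the same genes were at 0.23, 0.12 and 0.16, so the rise was not particular to KO_ST. The part of these cells in the levels of Scn1a and Kcng4 was not tested. Kcnc2, a Kv3 gene of the same interneurons, was 0.20 higher in KO_ST than in CT and 0.15 higher than in WT_ST, without overlap in either comparison and under a fold of 1.2 in both. The sum over the 5 excitatory neuron markers ran from 1442 to 1562 FPKM over the 9 mice with no marker called. The 5 oligodendrocyte markers ranged from 439 to 833 FPKM in sum, with both ends in CT mice and none called, and of the 4 oligodendrocyte precursor markers Gpr17 was called lower in KO_ST against CT (-0.40, and -0.20 and not called without CT replicate 3).

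Kcnj16 and Kcnj2 are next to each other in the genome and were both lower in KO_ST. Kcnj16 encodes Kir5.1, which forms pH-sensitive channels with Kir4.1 in glia, and Kcnj2 encodes Kir2.1, a strong inward rectifier of neurons, vessels and microglia. Kcnj16 stood at 6.83, 5.98 and 6.58 FPKM in CT, at 5.92, 6.77 and 6.03 FPKM in WT_ST and at 4.99, 3.65 and 5.46 FPKM in KO_ST. Kcnj2 stood at 3.82, 3.27 and 3.63 FPKM in CT, at 3.58, 4.19 and 3.68 FPKM in WT_ST and at 2.74, 2.13 and 3.32 FPKM in KO_ST. For Kcnj16 all KO_ST mice lay below all other mice. For Kcnj2 they lay below all WT_ST mice, and 1 of them overlapped CT. For KO_ST against WT_ST, limma gave a log2 fold change of -0.34 ± 0.12 for Kcnj16 (adjusted p = 0.83) and -0.37 ± 0.12 for Kcnj2 (adjusted p = 0.78). In KO_ST against CT it was -0.37 ± 0.12 for Kcnj16 (adjusted p = 0.50, called) and -0.28 ± 0.12 for Kcnj2 (adjusted p = 0.54, not called). The value of Kcnj2 against CT was -0.16 without KO_ST replicate 2 and -0.38 without KO_ST replicate 3. It was called in 7 of 15 alternatives: without that last mouse, with edgeR (-0.36), with DESeq2 (-0.37), without quantile normalization (-0.30), with 2 mice a group (-0.38), and, at the same -0.28, with all 9 mice in a single fit and with the replicate number as a block. In WT_ST against CT the log2 fold changes were -0.03 for Kcnj16 and 0.09 for Kcnj2.

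KO_ST replicate 2 was the lowest mouse for both genes. Without it the values in KO_ST against WT_ST were -0.21 for Kcnj16 and -0.25 for Kcnj2, and that of Kcnj16 in KO_ST against CT was -0.24, none of them called. Leaving out WT_ST replicate 2 also ended the calls in KO_ST against WT_ST (-0.30 and -0.32), and leaving out CT replicate 1 ended that of Kcnj16 against CT (-0.33). The microglia list moved in the same comparisons: 4 of its 5 markers (Cx3cr1, P2ry12, Csf1r and Tmem119) were called lower in KO_ST and in WT_ST against CT, and P2ry12 was called lower in KO_ST against WT_ST. Without KO_ST replicate 1 the log2 fold changes shrank from -0.80 to -0.45 for Csf1r and from -0.79 to -0.44 for Tmem119 against CT, both still called, and from -0.42 to -0.27 for P2ry12 against WT_ST, not called. The summed level of the 5 microglia markers was 76.6 to 97.0 FPKM in CT, 59.8 to 66.6 FPKM in WT_ST and 33.7 to 66.5 FPKM in KO_ST, lowest in KO_ST replicate 1. No microglia, astrocyte, endothelial or mural marker was at 0. The astrocyte sum was 217 to 252 FPKM in CT, 199 to 207 FPKM in WT_ST and 192 to 234 FPKM in KO_ST, with Aqp4 and Slc1a3 called lower in WT_ST against CT. Slc1a3 made up the largest part of the sum (119 FPKM on average). The other astrocyte markers were not called and went both ways against CT. In WT_ST and KO_ST, Gja1 was at -0.13 and -0.13, Aldh1l1 at 0.16 and 0.13 and Gfap at 0.21 and 0.27. Within KO_ST the astrocyte sum stood at 199.5, 192 and 234 FPKM, in the same order as Kcnj16 and Kcnj2, with 3 of the 5 markers lowest in replicate 2 (Aqp4, Aldh1l1 and Slc1a3) and Gja1 and Gfap lowest in replicate 1. In CT the sum was lowest in replicate 1, the mouse in which Kcnj16 and Kcnj2 were highest. The endothelial sum was 41.9 to 48.3, 36.2 to 43.6 and 33.9 to 42.5 FPKM in the same order, with Cldn5 called lower in both stressed groups against CT. The mural cell sum was 59.8 to 63.3, 50.4 to 58.7 and 43.6 to 66.9 FPKM, with Vtn called lower in WT_ST against CT. The part of these cells in the levels of Kcnj16 and Kcnj2 was not tested. Kcnj10, the Kir4.1 partner of Kir5.1, stood at 0.02, 0.01 and -0.01 in log2 fold change in WT_ST against CT, KO_ST against CT and KO_ST against WT_ST.

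On chromosome 11 of GRCm38, Kcnj16 runs from 110968033 to 111027968 and Kcnj2 from 111066164 to 111076821, both on the plus strand, with 38.2 kb and 0 annotated genes wholly between them, and neither overlaps another annotated gene. Their RefSeq promoters are given because these neighbours differed in the same direction. They are the first annotated start of Kcnj16, chr11:110967783-110968082, and the start of Kcnj2, chr11:111065914-111066213, both on the plus strand of GRCm38.p6, with a match to a searched motif in capitals (an E-box).
Kcnj16: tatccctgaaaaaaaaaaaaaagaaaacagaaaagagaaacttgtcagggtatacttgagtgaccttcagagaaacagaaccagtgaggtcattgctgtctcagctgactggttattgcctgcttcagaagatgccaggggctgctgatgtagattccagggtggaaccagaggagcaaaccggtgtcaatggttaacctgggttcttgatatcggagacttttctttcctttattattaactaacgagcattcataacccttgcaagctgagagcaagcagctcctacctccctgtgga
Kcnj2: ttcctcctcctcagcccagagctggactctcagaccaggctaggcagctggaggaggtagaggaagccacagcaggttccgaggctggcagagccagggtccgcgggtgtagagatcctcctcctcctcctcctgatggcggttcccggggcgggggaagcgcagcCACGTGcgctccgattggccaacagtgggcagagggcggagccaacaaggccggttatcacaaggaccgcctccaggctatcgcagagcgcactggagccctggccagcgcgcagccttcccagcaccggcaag
G and C made up 44.3% of the Kcnj16 window and 66.7% of the Kcnj2 window. Neither window, nor those of the 3 other annotated starts of Kcnj16, held this single arm of the glucocorticoid receptor site.

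Of the 9 other tested inward rectifiers, 1 was called, Kcnj3, which encodes Kir3.1, the subunit shared by most G protein-gated channels that metabotropic receptors open. It stood at 25.8, 25.7 and 29.1 FPKM in CT, at 30.05, 29.3 and 29.2 FPKM in WT_ST and at 31.9, 30.1 and 34.9 FPKM in KO_ST. The groups stood in that order without overlap. KO_ST exceeded CT by 0.27 ± 0.07 on the log2 scale (limma, adjusted p = 0.47), while the steps of 0.13 from CT to WT_ST and from WT_ST to KO_ST were each under a fold of 1.2, and the second was 0.083 without KO_ST replicate 3. The call in KO_ST against CT was lost without CT replicate 1 (0.24), CT replicate 2 (0.24) or KO_ST replicate 3 (0.22), and without quantile normalization (0.26). The other subunits of these channels, Kcnj6 (+0.08) and Kcnj9 (+0.01), stayed closer to CT in KO_ST against CT, and the low-expressed Kcnj5 was at 0.07. The non-coding gene Gm26794 overlaps Kcnj3 on the other strand.

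Kcng4, a silent subunit that changes the gating of Kv2 channels and forms none alone, was the lowest of the called genes. Its values were 0.502, 0.361 and 0.634 FPKM in CT, 0.842, 0.675 and 0.532 FPKM in WT_ST and 0.568, 0.807 and 1.14 FPKM in KO_ST, from 75 to 228 reads. In FPKM the lowest KO_ST mouse overlapped CT, and after quantile normalization it did not. KO_ST exceeded CT by 0.32 ± 0.11 on the log2 scale (limma, adjusted p = 0.50), and the call was lost without CT replicate 1 (0.32), CT replicate 2 (0.26), KO_ST replicate 2 (0.32) or KO_ST replicate 3 (0.22), and without quantile normalization (0.29). The Kv2 gene Kcnb2 (1.72 FPKM on average) was not called and lay between -0.06 and 0.08 in the 3 comparisons.

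Kcnn2, the gene of the small-conductance calcium-activated channel SK2, gave the largest called difference, and its values differ between the deposited units. In FPKM it stood at 11.4, 16.3 and 15.5 in CT, at 16.8, 16.7 and 16.5 in WT_ST and at 10.3, 12.3 and 9.63 in KO_ST. In log2 fold change this was -0.58 ± 0.09 for KO_ST against WT_ST (limma, adjusted p = 0.12) and -0.37 ± 0.14 for KO_ST against CT (adjusted p = 0.50). Without CT replicate 2 or 3, or KO_ST replicate 1 or 3, the second was -0.27 to -0.34 and not called, nor was it called with no filter on low reads (-0.37), while the first was called without each mouse in turn. In reads scaled to library size (RPM) the same mice stood at 40.7, 37.7 and 34.4 in CT, at 37.0, 37.5 and 42.1 in WT_ST and at 35.9, 42.8 and 35.9 in KO_ST, and all groups overlapped. On read counts edgeR gave -0.01 in KO_ST against WT_ST (adjusted p = 0.99) and 0.04 in KO_ST against CT (adjusted p = 0.91).

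The ratio of reads to FPKM gives the transcript length by which the deposited values were divided. For Kcnn2 it was 3567 bases in CT replicate 1 and 3483 to 3727 bases in KO_ST, and 2205 to 2546 bases in the other 5 mice, a ratio of 1.69 between the highest and the lowest. Among the 85 tested channel genes Kcnn2 alone exceeded a ratio of 1.2, where 1.37% of all tested genes (197) did so. The files give 1 FPKM per gene, so which transcripts the reads came from was not tested. Kcnn2 spans 45268860 to 45686024 on chromosome 18, where the antisense gene A330093E20Rik and 3 pseudogenes are annotated within it on the other strand. The related genes Kcnn1 and Kcnn3 lay between -0.09 and 0.10 in all 3 comparisons.

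**Figure D4:**
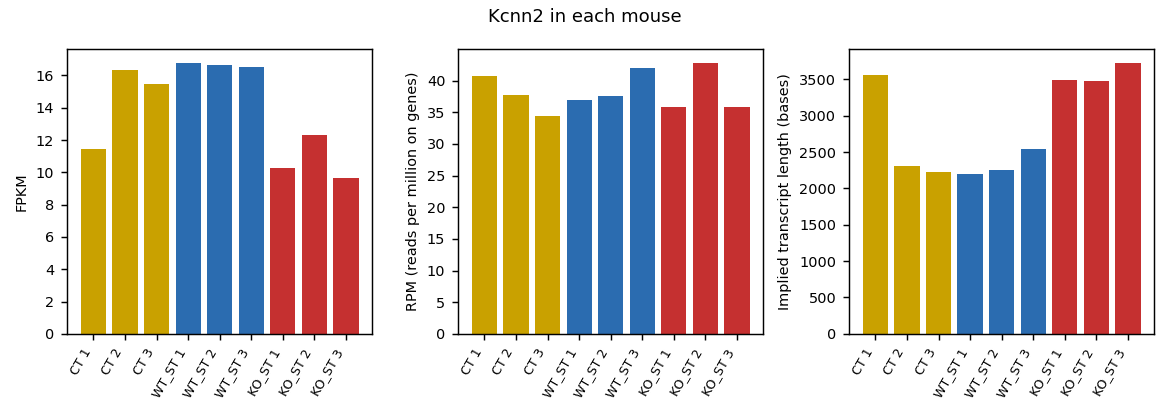
Kcnn2 in each of the 9 mice as FPKM (left), as RPM (middle) and as the transcript length in bases implied by the ratio of reads to FPKM (right), bars starting at 0 and coloured by group. The KO_ST bars are low in FPKM (9.63 to 12.3) and high in implied length (3483 to 3727), while in RPM they lie at 35.9 to 42.8 among the others.

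In the other Kv classes limma called no gene with all mice. Kcnh5, an EAG channel, was 0.21 higher in KO_ST than in WT_ST, under a fold of 1.2, and it was called there with edgeR (0.40), DESeq2 (0.40) and a pseudocount of 0.1 (0.34). All 4 Kv3 genes, which let neurons fire at high rates, lay above CT in both stressed groups, by 0.03 to 0.15 in WT_ST and 0.06 to 0.20 in KO_ST, with none called, and their summed level was 102 ± 2.59 FPKM (SD, n = 3) in CT, 107 ± 2.54 FPKM in WT_ST and 110 ± 3.02 FPKM in KO_ST. In the Kv1 class, which sets the threshold of axons, Kcna6 was 0.17 and 0.16 higher in WT_ST and KO_ST than in CT, and Kcna3 ranged from 1.35 to 4.89 FPKM within the wild-type mice, so that its -0.29 in WT_ST against CT became 0.06 without WT_ST replicate 1. In the Kv4 class, the A-type channels of dendrites, Kcnd2 was 0.16 higher (0.10 without CT replicate 2) and Kcnd3 0.15 lower in KO_ST than in CT, and their class sums were 38.0 ± 1.79, 37.6 ± 1.42 and 37.5 ± 0.126 FPKM in CT, WT_ST and KO_ST. The Kcnh class held genes on both sides: Kcnh3 was at -0.13 in both stressed groups, while Kcnh1 was 0.12 and 0.15 above CT. Its sums were 103 ± 2.13, 100 ± 1.33 and 100 ± 3.88 FPKM.

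Among the Kv7 genes, Kcnq3, a subunit of the M-current, ranged from 2.28 to 8.34 FPKM, was lowest in WT_ST replicate 1 and CT replicate 3 (2.44 FPKM), and reached 0.34 in KO_ST against WT_ST without being called. That value was 0.05 without WT_ST replicate 1, 0.04 without KO_ST replicate 2, 0.55 without WT_ST replicate 3 and 0.60 without KO_ST replicate 3. Kcnq5 lay between 17.7 and 21.4 FPKM in all 9 mice.

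No calcium channel or HCN gene was called by limma with all mice in any comparison. Over the Cacna1 genes the largest log2 fold changes were -0.17 for Cacna1c, an L-type pore, in WT_ST against CT, 0.16 for the T-type gene Cacna1i in KO_ST against CT and 0.12 for Cacna1i in KO_ST against WT_ST. Single mice weighed on these: the WT_ST mice lay -0.25 to 0.15 from their mean for Cacna1c, lowest in replicate 1. For Cacna1i the KO_ST mice lay -0.14 to 0.14 from theirs. The P/Q-, N- and R-type genes summed to 63.2 ± 5.55, 60.9 ± 6.49 and 62.8 ± 3.34 FPKM in CT, WT_ST and KO_ST, the L-type genes to 17.4 ± 0.871, 15.8 ± 2.13 and 16.0 ± 1.23 FPKM, and the T-type genes to 44.8 ± 5.70, 44.5 ± 1.70 and 45.3 ± 1.5 FPKM. The 4 HCN genes together summed to 55.0 ± 1.57, 57.5 ± 1.42 and 58.1 ± 3.51 FPKM. Two-pore genes were not called with all mice either, with Kcnk4 at 0.22 in WT_ST against CT and -0.14 in KO_ST against WT_ST. Kcnk4 was called at 0.264 in the first without CT replicate 1, and at -0.28 in the second with 2 mice a group. The sodium-activated genes Kcnt1 and Kcnt2 lay between -0.02 and 0.18, and Kcnu1, whose channel is known from sperm, was 0.20 lower in KO_ST than in WT_ST.

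The genes of the proteins that channels assemble with were read beside them. Of 49 genes listed as accessory subunits or partners, 48 were in the files and 44 were tested. In WT_ST against CT 2 were called, both higher: Kcnab3 (+0.39), a Kv1 beta subunit, and Cacnb4 (+1.06), a calcium channel beta subunit. In KO_ST against CT Kcnab3 alone was called (+0.38), and in KO_ST against WT_ST none was. Cacnb4 ranged from 7.32 to 29.7 FPKM with high and low mice in CT and in KO_ST, and its value in WT_ST against CT was 0.70 without CT replicate 3, where it was not called, and 1.56 without CT replicate 2. Without CT replicate 2 Kcnab3 was at 0.27 in WT_ST against CT and not called. The median log2 fold changes of the 44 were 0.03, 0.02 and -0.01. The 8 tested sodium channel partners, which include Ank3 and the Fgf11 to Fgf14 genes, had medians of 0.01 in each comparison. Kcnma1 stood at -0.17, 0.09 and 0.27 and was not called.

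Part of the spread within groups was shared by many channel genes. For 21 of the 85 tested genes (24.7%) CT replicate 3, WT_ST replicate 1 and KO_ST replicate 3 were the lowest mice of their groups, where this held for 1065 (7.41%) of all tested genes. The 3 mice were picked after the values were seen. The 21 genes included Cacna1b, Cacna1c, Cacna1d, Cacna1e, Cacna1h, Kcna2, Kcna3, Kcnd3, Kcng2, Kcnh6, Kcnh7, Kcnk9, Kcnn3, Kcnq3, Kcnt1, Kcnt2, Scn2a, Scn3a and Scn3b. The median implied transcript length of the 21 was 7801 bases, with 4180 bases for the other 64 tested channel genes and 3008 bases for all tested genes. Median deviations of the 21 from the group mean were -0.15, -0.17 and -0.12 in log2(FPKM + 1) in these 3 libraries, and the other 64 genes deviated by 0.00, 0.01 and 0.04. The part of RNA quality or library preparation in this was not tested. With these 3 libraries left out, 1, 6 and 5 channel genes were called in WT_ST against CT, KO_ST against CT and KO_ST against WT_ST. Of all 14370 tested genes 628, 793 and 541 were called then, where 355, 512 and 287 were with all mice. Of the calls in KO_ST against CT, Kcng4, Kcnj16 and Kcnj3 remained, while Scn1a (0.28) and Kcnn2 (-0.24) did not, and all 3 calls of KO_ST against WT_ST remained.

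**Figure D5:**
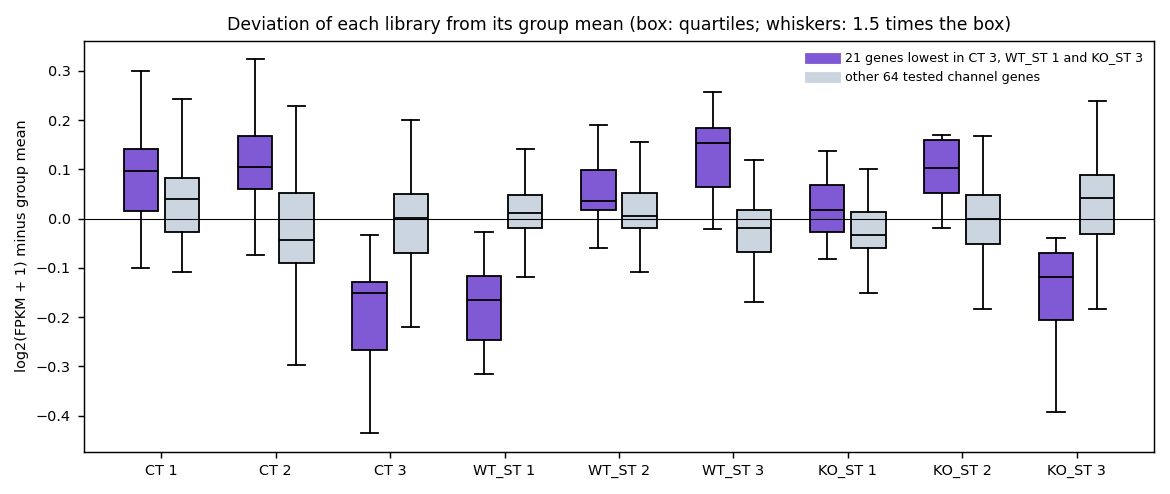
Deviation of log2(FPKM + 1) from the group mean (vertical axis) in each library, for the 21 channel genes that were lowest in CT replicate 3, WT_ST replicate 1 and KO_ST replicate 3 (purple) and the other 64 tested channel genes (grey); boxes give the quartiles, lines the median and whiskers reach 1.5 times the box. The purple boxes lie below 0 in the 3 libraries by which the genes were chosen, with medians of -0.15, -0.17 and -0.12, and the grey medians stay within 0.04 of 0 there.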

How the data were processed

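The mPFC of 9 mice was sequenced with a stranded mRNA kit. The authors aligned the reads to GRCm38 with HISAT2 2.1.0 and Bowtie2 2.3.4.1 and quantified transcripts with StringTie 1.3.4d, per the labels and the study's methods, and deposited read counts per gene, not normalized, and FPKM values per gene. FPKM stayed the main measure, after the study's methods: log2(FPKM + 1), quantile normalized over the 9 mice, for genes with a mean of at least 30 reads. Each pair of groups was compared by limma's moderated test, two-sided and with a trend (limma 3.58.1, R 4.3.3), on the mice of the 2 groups compared, and adjusted over all 14370 tested genes. This replaces the study's gene-by-gene test because a group has 3 mice. Fold changes are on this log2 scale and understate those of low genes. Other settings were tests on the counts (edgeR 4.0.16, DESeq2 1.42.0), a pseudocount of 0.1, no quantile normalization, other filters, 1 fit of all groups, a replicate block and each mouse left out. The tests were also run on simulated counts for WT_ST against CT. The changes planted there were larger than any called channel difference, so recovery of differences of the sizes seen here was not tested.

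The channel genes, classes, marker lists and partner lists were chosen with earlier results of these data known. Named are Fkbp5, the called channel genes, in each class the highest gene and those with the largest difference, genes at or under 3 reads, those beside the filter, and called list genes; not every such gene is printed, and others (Kcnj5, Kcnj6, Kcnj9, Kcnq5, Scn3a and the like) were named after their values were seen. All 107 genes matched RefSeq, and promoter windows of 300 bases come from its GRCm38.p6 table. No pair of libraries in a group agreed within sampling noise (lowest chi-square per degree of freedom 16.99). Python 3.11.15 with matplotlib 3.10.9 drew the figures. A few channel and marker genes are not reported here, though they stay in the counts and sums.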

Additional observations from a re-analysis of the deposited data

Results flagged for a closer look

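Among the 22 channel genes too low for testing, Kcne3, an auxiliary subunit, had a mean of 0.289 RPM (reads scaled to library size) in WT_ST, from 0.264 to 0.310, and every WT_ST mouse lay above every CT mouse (0.123 to 0.213). This was noticed because the signal lies outside the tested genes and above the control level. It was the only such case among 13 untested genes with at least 3 reads on average, each checked in both stressed groups. Of all tested genes, 7.54% lay above CT without overlap in WT_ST. The reads of Kcne3 were 13, 15 and 13 in WT_ST, 13, 10 and 6 in CT and 5, 12 and 6 in KO_ST. The main test left it out. With no filter on low reads 104 channel genes were tested, Kcne3 among them, and limma called none in WT_ST against CT.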

How the results depend on the processing

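The number of called channel genes in WT_ST against CT was 0 and became 1 with a pseudocount of 0.1, 2 with edgeR, 2 with DESeq2, 1 with 2 mice a group (CT replicate 3, WT_ST replicate 1 and KO_ST replicate 3 left out, a choice made after the values were seen), and 0 to 5 with each mouse left out. In KO_ST against CT, 6 became 2 (without CT replicate 2) to 8 (without CT replicate 1), and in KO_ST against WT_ST, 3 became 5 with 2 mice a group and 1 (without WT_ST replicate 2 or KO_ST replicate 2) to 5 (without KO_ST replicate 3). The median log2 fold change of the channel genes in KO_ST against CT was 0.017 with 2 mice a group and 0.010 to 0.088 with each mouse left out, and in KO_ST against WT_ST 0.0027 to 0.042. In WT_ST against CT it was 0.014 with 2 mice a group and 0.021 (without CT replicate 3) to 0.067 (without CT replicate 1). Kcnn2 in KO_ST against CT turned to 0.042 with edgeR (adjusted p = 0.91) and 0.040 with DESeq2 (adjusted p = 0.97), since these read the counts and not FPKM. Without WT_ST replicate 1 Kcna3 turned in both comparisons with WT_ST (range -0.58 to 0.060 against CT and -0.084 to 0.54 for KO_ST against WT_ST); the cause was not tested. Without quantile normalization 126 of 369 called genes were higher in WT_ST against CT, where 166 of 355 were with it, and 148 of 519 were higher in KO_ST against CT, where 221 of 512 were; of 5 channel genes then called there, 2 were higher. Over all genes WT_ST against CT gave 544 calls with a pseudocount of 0.1, 535 with edgeR, 552 with DESeq2, 628 with 2 mice a group, 531 without CT replicate 1 and 542 without CT replicate 3. KO_ST against CT gave 793 with 2 mice a group, 410 without CT replicate 2 and 734 without CT replicate 1. KO_ST against WT_ST gave 445 with a pseudocount of 0.1, 541 with 2 mice a group and 477 without KO_ST replicate 3. Without WT_ST replicate 2 or KO_ST replicate 2 it gave 245 and 282. Mice with the same replicate number did not deviate together on average (mean r -0.0101, from -0.259 to 0.234, and 0.00494 between different numbers). No pairing by number was seen in this measure, which cannot settle whether mice shared a batch. With the replicate number as a block 0, 7 and 3 channel genes were called, where 399, 562 and 279 of all 14370 tested genes were. By p alone the block took the channel genes under 0.05 in KO_ST against CT from 11 to 18 (limma). With 3 mice a group and p unadjusted, small differences in single channel genes could not be settled.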
